A study of Sorghum bicolor with 6 samples.

Results

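LHY (Sobic.007G047400.v3.2) and TOC1 (Sobic.004G216700.v3.2) are the core pair of clock genes described here, taken by identifier, 2 of the 34129 gene models in the deposited files. Both had enough counts to be tested. The material was leaf tissue of 4-week-old sorghum (Sorghum bicolor) plants that overexpressed SbGhd7 (SbGhd7 OE) and of plants that carried an empty vector, with 3 RNA-seq libraries in each group. SbGhd7 encodes a CCT-domain protein that represses flowering in long days. The labels name neither the promoter of the transgene, nor the sorghum line, nor the hour of harvest, nor which plants or transformed lines went into each library. The p-values therefore set the difference between groups only against how much the libraries of a group differ, and some of that may be technical. The gene names rest on general knowledge of the sorghum literature and were not checked against a table of identifiers.

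The plant circadian clock is a network of transcription factors that repress each other at different times of day. In Arabidopsis, LHY is a MYB-type factor whose transcript peaks around dawn and which represses evening genes, TOC1 among them. TOC1 is a pseudo-response regulator whose transcript peaks around dusk and which in turn represses LHY. In a leaf sampled at a single time, the level of each transcript depends on the hour as well as on the plant, and with no hour in the labels these cannot be told apart here.

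Library totals lay between 27844391 and 35830080 counts. The SbGhd7 transcript (Sobic.006G004400) followed the labels in all 6 libraries, at 643, 337 and 734 CPM in SbGhd7 OE replicates 1, 2 and 3, and at 1.12, 1.94 and 0.948 CPM in empty vector replicates 1, 2 and 3 (CPM, counts per 1000000 counts of the library, after TMM scaling). The 6 leaf genes used to check the tissue were abundant in every library, with no value below 6122 counts. With a threshold of 0.05 on the adjusted p, edgeR called 53.3% of the 20820 genes tested, 28.0% higher and 25.3% lower in SbGhd7 OE. Against that background all 4 mesophyll genes of the check (PEPC, PPDK, NADP-MDH and CA1) rose, with summed levels of 30182 to 42646 CPM in SbGhd7 OE and 9762 to 11536 CPM in empty vector. The sums are mostly PEPC and PPDK, and the rises were unlike: 4.39-fold for PEPC, 2.25-fold for PPDK, 4.94-fold for NADP-MDH and 20.5-fold for CA1. Of the 2 bundle sheath genes, NADP-ME fell and RBCS did not pass the test (it did without empty vector replicate 3, adjusted p = 0.015 in edgeR, in a fit that called 48.3% of all genes), with summed levels of 3968 to 4375 CPM in SbGhd7 OE and 5823 to 7581 CPM in empty vector. What part the leaf cell types had in the values of the clock genes was not tested. In whole leaf a change in the number of cells of a type and a change in the level of each transcript per cell cannot be told apart. SbGhd7 OE replicate 2 and empty vector replicate 3 stood apart from the rest of their groups on the second principal component of all genes tested (7.71% of the variance), so results on both genes are also given without them.

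LHY was the clock gene with the largest difference among the 6 measured. Its transcript had 19789, 16946 and 27463 counts in SbGhd7 OE replicates 1, 2 and 3, and 721, 616 and 1138 counts in empty vector replicates 1, 2 and 3. After scaling these were 735, 552 and 989.8 CPM in SbGhd7 OE, against 23.1, 19.9 and 30.8 CPM in empty vector. Every SbGhd7 OE library stood far above every empty vector library, and replicate 3 was the highest and replicate 2 the lowest within each group.

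In group means LHY stood at 758.9 ± 220 CPM in SbGhd7 OE and 24.6 ± 5.60 CPM in empty vector (SD, n = 3 each). The fitted log2 fold change of SbGhd7 OE over empty vector was 4.95 (SE 0.285, 95% interval 4.29 to 5.60), a 30.8-fold rise, with an adjusted p of 1.1e-05 in edgeR's quasi-likelihood test. Taken library against library, the 9 ratios of an SbGhd7 OE library to an empty vector library ran from 17.9 (SbGhd7 OE replicate 2 over empty vector replicate 3) to 49.6 (SbGhd7 OE replicate 3 over empty vector replicate 2). The smallest of these ratios joins the 2 libraries that stood apart. Without both of them LHY rose by 5.32 on the log2 scale (edgeR adjusted p = 4.4e-06). The exact two-sided permutation p over libraries was 0.1, which is the lowest possible with 3 in each group.

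The rise of LHY has to be read in a leaf transcriptome that differed widely. Beside the 28.0% of genes called higher, the groups did not overlap for 64.0% of the genes, for 32.4% with SbGhd7 OE above. A call on LHY, or the absence of overlap, is therefore not in itself unusual. Its size was further out: 251 genes tested, LHY included, or 1.21%, had a log2 fold change as high or higher, while the median absolute log2 fold change over all genes tested was 0.62.

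TOC1 was a weakly expressed gene in these leaves, and its libraries did not separate by group. It had 56, 323 and 114 counts in SbGhd7 OE replicates 1, 2 and 3, and 68, 51 and 88 counts in empty vector replicates 1, 2 and 3. After scaling the values were 2.08, 10.5 and 4.11 CPM in SbGhd7 OE, against 2.17, 1.65 and 2.38 CPM in empty vector. SbGhd7 OE replicate 1 lay within the empty vector range, whereas replicates 2 and 3 lay above it.

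**Figure D1:**
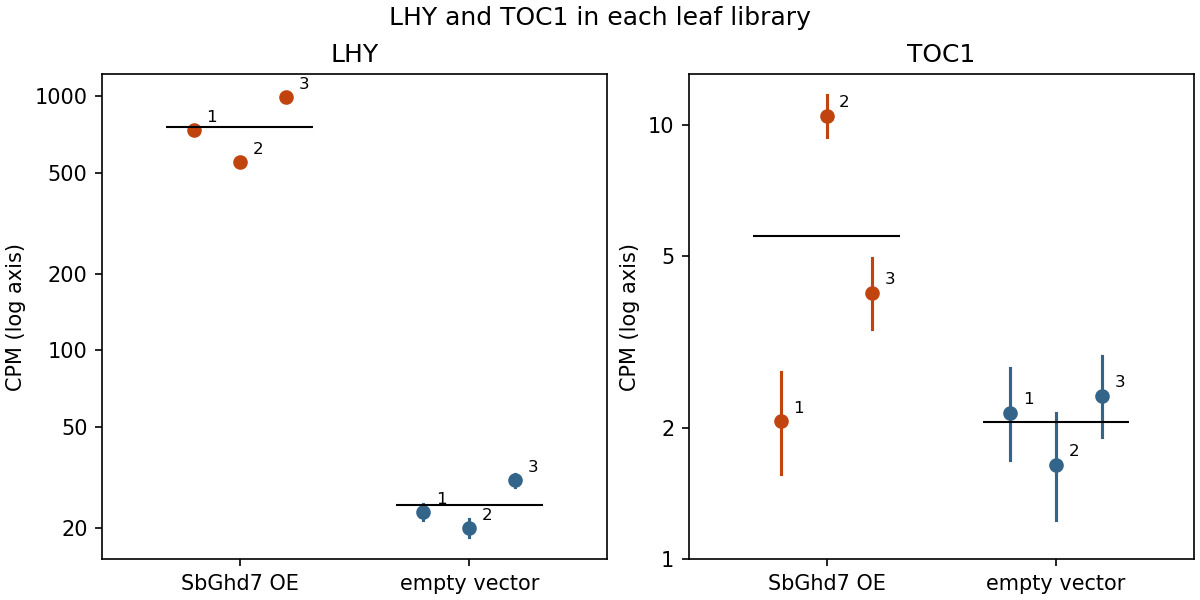
CPM of LHY (left) and TOC1 (right) in each library on log axes that differ between the panels, with SbGhd7 OE left of empty vector; numbers are replicates, vertical bars are exact 95% Poisson intervals of the count (counting error only) and horizontal lines are group means. The 3 SbGhd7 OE libraries lie far above the empty vector libraries for LHY, while for TOC1 SbGhd7 OE replicate 1 lies within the empty vector range and replicate 2 is the highest of all 6.

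Mean TOC1 was 5.57 ± 4.40 CPM in SbGhd7 OE and 2.07 ± 0.377 CPM in empty vector (SD, n = 3 each). The log2 fold change was 1.43 (SE 0.541), with a 95% interval of 0.18 to 2.68 that takes no account of the number of genes tested, or 1.13-fold to 6.41-fold. After adjustment over all genes it missed the threshold in edgeR (adjusted p = 0.056). DESeq2's Wald test, which called 47.0% of its genes, did call TOC1 (log2 fold change 1.44, adjusted p = 0.016). The exact two-sided permutation test gave p = 0.3. Of the 9 ratios between an SbGhd7 OE library and an empty vector library, 7 were above 1 and 2 below it, and they ran from 0.874 to 6.37. The ratios below 1 both involved SbGhd7 OE replicate 1, over empty vector replicates 1 (0.957) and 3 (0.874).

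The TOC1 value turned on single SbGhd7 OE libraries. With SbGhd7 OE replicate 2 left out it was 0.58 on the log2 scale (edgeR adjusted p = 0.22). Leaving out SbGhd7 OE replicate 1 instead raised it to 1.82, past the threshold (edgeR adjusted p = 0.0096), in a fit that called 46.9% of all genes. With SbGhd7 OE replicate 2 and empty vector replicate 3 both left out it was 0.69 (edgeR adjusted p = 0.19). Over all tested genes, 12.2% had a log2 fold change as high as that of TOC1 in the fit of all 6 libraries.

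The spread of TOC1 within SbGhd7 OE exceeded what the counts alone would give. The exact 95% Poisson interval for its level was 1.57 to 2.70 CPM in SbGhd7 OE replicate 1, 9.40 to 11.7 CPM in replicate 2 and 3.39 to 4.94 CPM in replicate 3, and these do not touch. Because the deposited values may not be single fragments, the intervals were also computed with each value halved. They were then 1.38 to 3.01, 8.98 to 12.3 and 3.11 to 5.32 CPM in the same order, still apart. Replicates 1 and 3 were then only narrowly apart (3.01 against 3.11 CPM), and no larger divisor was tried. Counting error alone is covered by these intervals. In empty vector the intervals at full counts, 1.69 to 2.76, 1.23 to 2.17 and 1.91 to 2.94 CPM in replicates 1, 2 and 3, all overlapped.

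Set beside genes of like mean level over all 6 libraries, TOC1 varied more than most in SbGhd7 OE and was ordinary in empty vector. The standard deviation of its log2 CPM over 3 libraries was 1.16 in SbGhd7 OE and 0.27 in empty vector. Among the 1843 genes tested within 0.5 log2 units of its mean level, the median standard deviation was 0.34 in SbGhd7 OE and 0.26 in empty vector, and 97.1% of them varied less than TOC1 in SbGhd7 OE, against 52.5% in empty vector. LHY had standard deviations of 0.42 in SbGhd7 OE and 0.32 in empty vector, above 92.7% and 93.5% of 1116 genes chosen in the same way. The mean level used for this choice was taken over all 6 libraries. LHY stood at that mean in neither group, with 9.11 to 9.95 log2 CPM in SbGhd7 OE and 4.32 to 4.95 in empty vector. TOC1 also differed between the groups, with 1.10 to 3.40 log2 CPM in SbGhd7 OE and 0.78 to 1.29 in empty vector. The shares of LHY and TOC1 are therefore no ranking among genes of their level in either group. The difference in LHY between groups was many times the spread of LHY within them.

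SbGhd7 OE replicate 2 was the library with the highest TOC1 value, 1.34 log2 units above the next SbGhd7 OE library. Over all genes tested, 496 (2.38%) were at least 1 log2 unit higher in that library than in either other SbGhd7 OE library, and 479 (2.30%) were at least that much lower. TOC1 was one of the 496. SbGhd7 OE replicate 1, where TOC1 was lowest, lay 0.96 log2 units below the next library for this gene.

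The joint level of LHY and TOC1 was scattered in SbGhd7 OE and steady in empty vector. For each TOC1 count there were 353, 52.5 and 241 LHY counts in SbGhd7 OE replicates 1, 2 and 3, and 10.6, 12.1 and 12.9 LHY counts in empty vector replicates 1, 2 and 3. Counts are not divided by transcript length, so these ratios are read between libraries and not as the number of LHY transcripts per TOC1 transcript. Every SbGhd7 OE library had a higher ratio than every empty vector library, including replicate 2, where TOC1 was high. The values of the single genes already imply this. Between an SbGhd7 OE and an empty vector library, the smallest LHY ratio was 17.9 and the largest TOC1 ratio was 6.37.

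On the log2 scale the ratio of LHY to TOC1 counts averaged 7.36 ± 1.45 in SbGhd7 OE and 3.55 ± 0.15 in empty vector (SD, n = 3 each), a difference of 3.80. It spanned 2.74 log2 units among the SbGhd7 OE libraries and 0.29 among the empty vector libraries. Leaving out 1 library at a time gave differences between 3.25 (without SbGhd7 OE replicate 1) and 4.62 (without SbGhd7 OE replicate 2). This ratio does not depend on the scaling between libraries, and being a score over the members it was given no test.

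The order of the libraries differed between the groups. In SbGhd7 OE the library with the least LHY, replicate 2, had the most TOC1, and replicate 1, intermediate for LHY, had the least TOC1. In empty vector LHY and TOC1 had the same order, replicate 2 lowest and replicate 3 highest for both. SbGhd7 itself was lowest in replicate 2 (337 CPM) and highest in replicate 3 (734 CPM) of SbGhd7 OE, the order of LHY. In empty vector its CPM stood in the reverse order of LHY, but on only 35, 60 and 35 counts in replicates 1, 2 and 3. Replicates 1 and 3 there had equal counts and differed only through scaling. With 3 libraries in a group these orders are descriptions, and no correlation was computed because the libraries fall into 2 separate clusters.

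**Figure D2:**
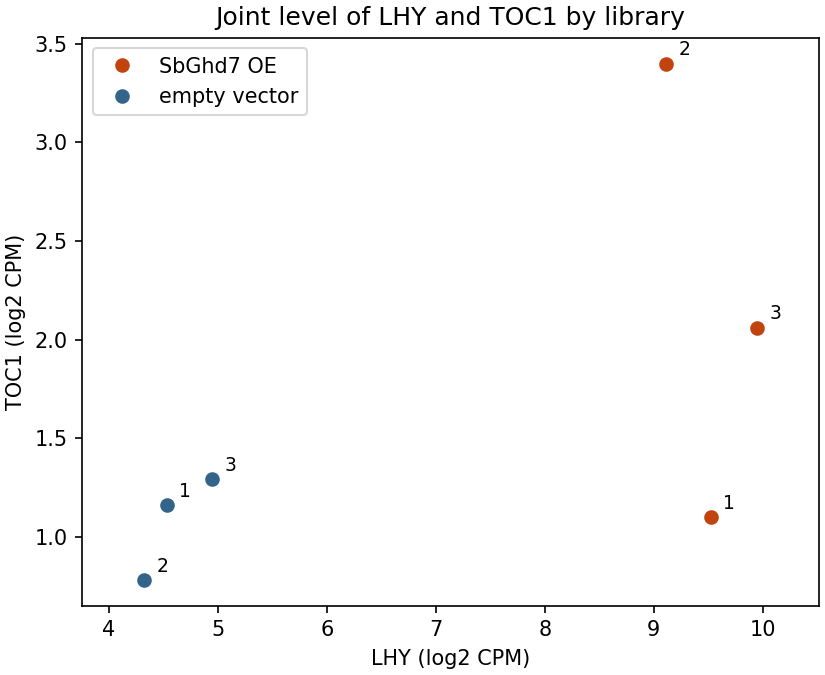
Joint level of the 2 genes, with LHY on the horizontal axis and TOC1 on the vertical axis, both in log2 CPM; each point is a library and numbers are replicates. The SbGhd7 OE libraries lie between 9.11 and 9.95 for LHY and are spread between 1.10 and 3.40 for TOC1, while the empty vector libraries lie close together between 4.32 and 4.95 for LHY and between 0.78 and 1.29 for TOC1.

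LHY had the highest fitted log2 fold change of the listed clock genes. TOC1 came next in the fit of all 6 libraries, without passing the test, but not without SbGhd7 OE replicate 2, where it stood at 0.58 and the second ELF3 copy at 0.59. The list holds 4 further genes, of which edgeR called 1 higher and 2 lower in SbGhd7 OE and 1 did not pass, where 53.3% of all genes were called. Their median log2 fold change was -0.61, against 0 for all genes tested. All 4 share the libraries of LHY and TOC1, so they are no independent support for either.

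GI (Sobic.003G040900), GIGANTEA, an evening-phased clock protein that promotes flowering in Arabidopsis, had 752, 788 and 898 CPM in SbGhd7 OE replicates 1, 2 and 3, against 1599, 1414 and 1277 CPM in empty vector replicates 1, 2 and 3. The groups did not overlap, as for 64.0% of all genes tested, and GI fell by 0.82 on the log2 scale (edgeR adjusted p = 0.0026). ELF3 (Sobic.009G257300), a scaffold of the evening complex that in Arabidopsis represses growth and clock genes at night, had 28.1, 36.6 and 33.3 CPM in SbGhd7 OE, against 131.4, 133.8 and 102.9 CPM in empty vector. It fell by 1.91 on the log2 scale (edgeR adjusted p = 3.4e-05), again without overlap. Across all genes tested, 25.3% were called lower in SbGhd7 OE.

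A second ELF3 copy (Sobic.003G191700) had 48.5, 38.1 and 45.1 CPM in SbGhd7 OE and 30.3, 27.8 and 35.2 CPM in empty vector, in replicates 1, 2 and 3 of each. It rose by a log2 fold change of 0.50 (edgeR adjusted p = 0.015), a call lost when any of 3 single libraries was left out (adjusted p = 0.063 without empty vector replicate 1, 0.077 without empty vector replicate 2 and 0.055 without SbGhd7 OE replicate 1). Whether reads were shared between the 2 ELF3 copies was not tested.

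PRR37 (Sobic.006G057866), a pseudo-response regulator like TOC1 and a repressor of flowering in sorghum, did not pass (log2 fold change -0.40, edgeR adjusted p = 0.40). It had 3.23, 9.18 and 5.55 CPM in SbGhd7 OE replicates 1, 2 and 3 and 8.28, 9.94 and 5.52 CPM in empty vector replicates 1, 2 and 3. Its SbGhd7 OE libraries stood in the order of TOC1, with replicate 1 lowest and replicate 2 highest, and its empty vector libraries did not. Its value moved with single libraries. It was -0.10 without SbGhd7 OE replicate 1 (edgeR adjusted p = 0.82), -0.84 without SbGhd7 OE replicate 2 (adjusted p = 0.064), -0.22 without empty vector replicate 2 (adjusted p = 0.71) and -0.61 without empty vector replicate 3 (adjusted p = 0.23), and passed in none of them. Without SbGhd7 OE replicate 2 and empty vector replicate 3 together, a fit chosen after seeing the data, its log2 fold change was -1.05 and it passed (edgeR adjusted p = 0.017), in a fit that called 52.5% of all genes.

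**Figure D3:**
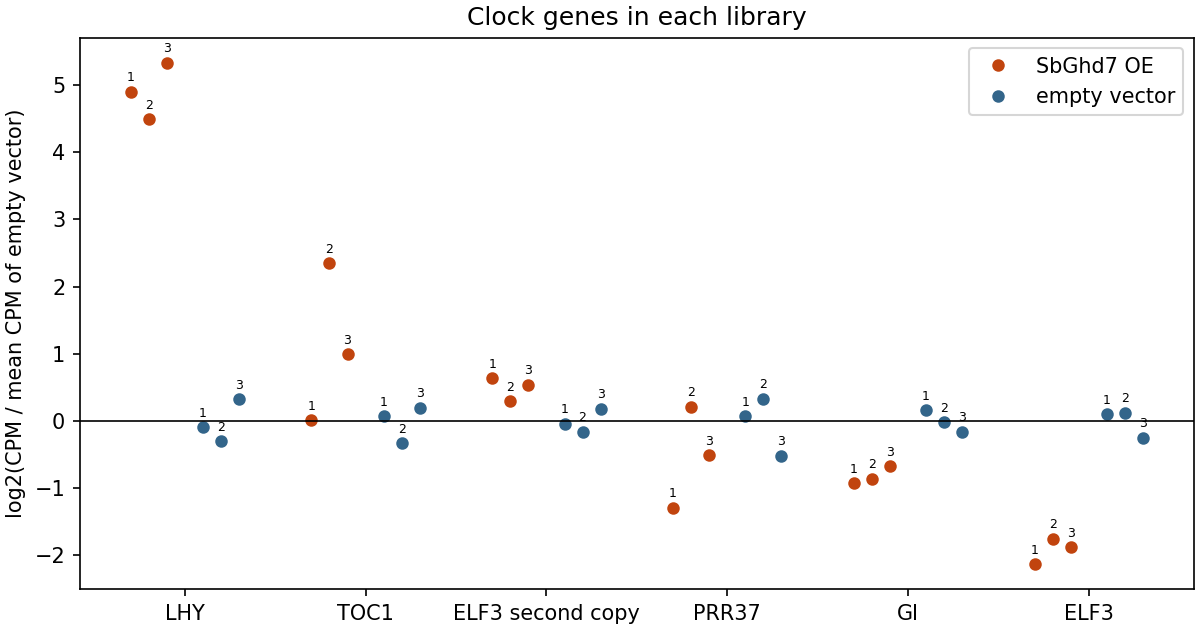
The 6 clock genes in each library, as log2 of the CPM over the mean CPM of the empty vector libraries, with SbGhd7 OE left of empty vector for each gene and numbers giving the replicate. LHY lies between 4.49 and 5.33 in SbGhd7 OE, TOC1 between 0.01 and 2.35, and GI and ELF3 lie below the empty vector libraries in all 3.

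**Figure D4:**
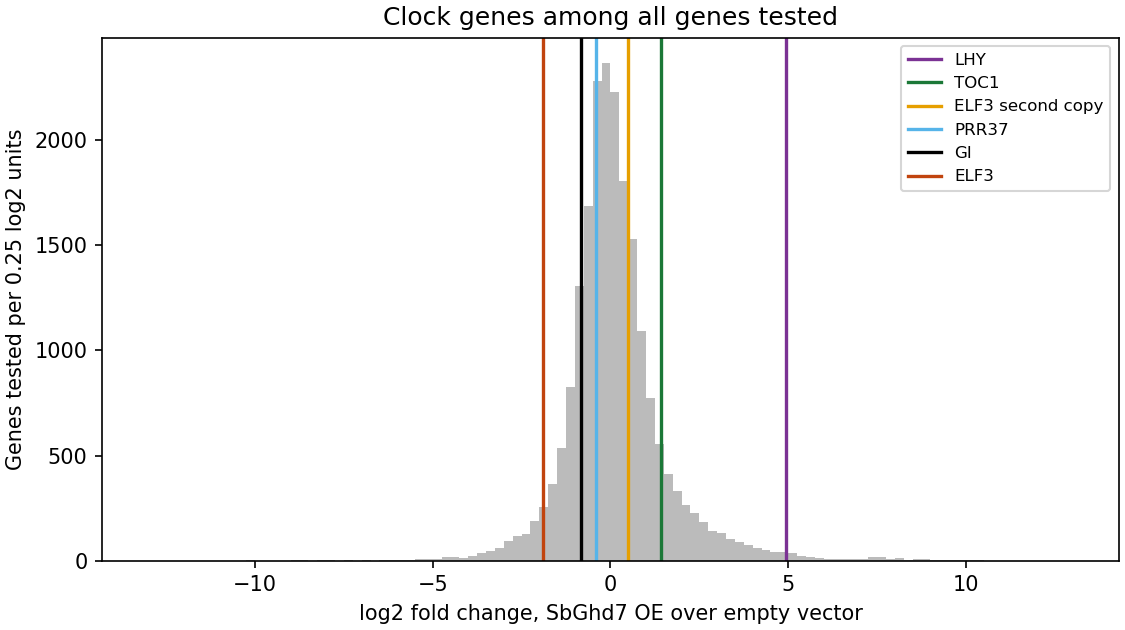
Log2 fold changes, SbGhd7 OE over empty vector, of the 20820 genes tested (grey histogram, genes per bin on the vertical axis), with vertical lines at the 6 clock genes. LHY at 4.95 lies in the upper tail, TOC1 at 1.43 lies on the upper shoulder, and the other 4 lie between -1.91 and 0.50.

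The genes whose 6 library values lay closest to those of each member were found by the distance between log2 CPM values after removing each gene's mean, among genes with a mean of 5 CPM or more. No names go with these identifiers in the sources used here. Sobic.001G157900 was the nearest to LHY of 14335 genes compared, at a distance of 0.540 (median over the genes compared 6.12). It had 10.03, 7.26 and 13.6 CPM in SbGhd7 OE and 0.160, 0.259 and 0.325 CPM in empty vector, in replicates 1, 2 and 3 of each. The empty vector values rest on 5, 8 and 12 counts. The gene nearest to the mirror image of LHY was Sobic.001G510300, at a distance of 0.415, with 1.08, 1.56 and 0.901 CPM in SbGhd7 OE and 35.8, 32.9 and 25.1 CPM in empty vector.

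For TOC1, itself below the minimum mean of 5 CPM, the nearest of 14336 genes was Sobic.007G075200, at a distance of 0.279 (median 2.32). It had 3.23, 14.7 and 5.73 CPM in SbGhd7 OE and 2.85, 2.07 and 3.71 CPM in empty vector, so its SbGhd7 OE libraries too had replicate 2 highest and replicate 1 lowest. The nearest mirror image of TOC1 was Sobic.009G002600, at a distance of 0.396, with 31.8, 6.998 and 13.5 CPM in SbGhd7 OE and 31.6, 32.9 and 28.9 CPM in empty vector. Sobic.001G157900 and Sobic.007G075200 reached the minimum mean only through SbGhd7 OE, and Sobic.001G510300 only through empty vector. All the nearest genes were selected for their pattern, so the likeness itself is no result.

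The settings of the analysis left LHY in place and moved TOC1. Over 17 alternatives LHY kept a log2 fold change of 4.70 to 5.32 and passed in each. TOC1 was positive in all 17, at 0.58 to 1.82, and passed in 2 of them, DESeq2's Wald test and the fit without SbGhd7 OE replicate 1. The fitted log2 fold changes of LHY and TOC1 differed by 3.52 in the fit of all 6 libraries, and by 3.10 to 4.63 in the alternatives, so LHY had the larger one under each.

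**Figure D5:**
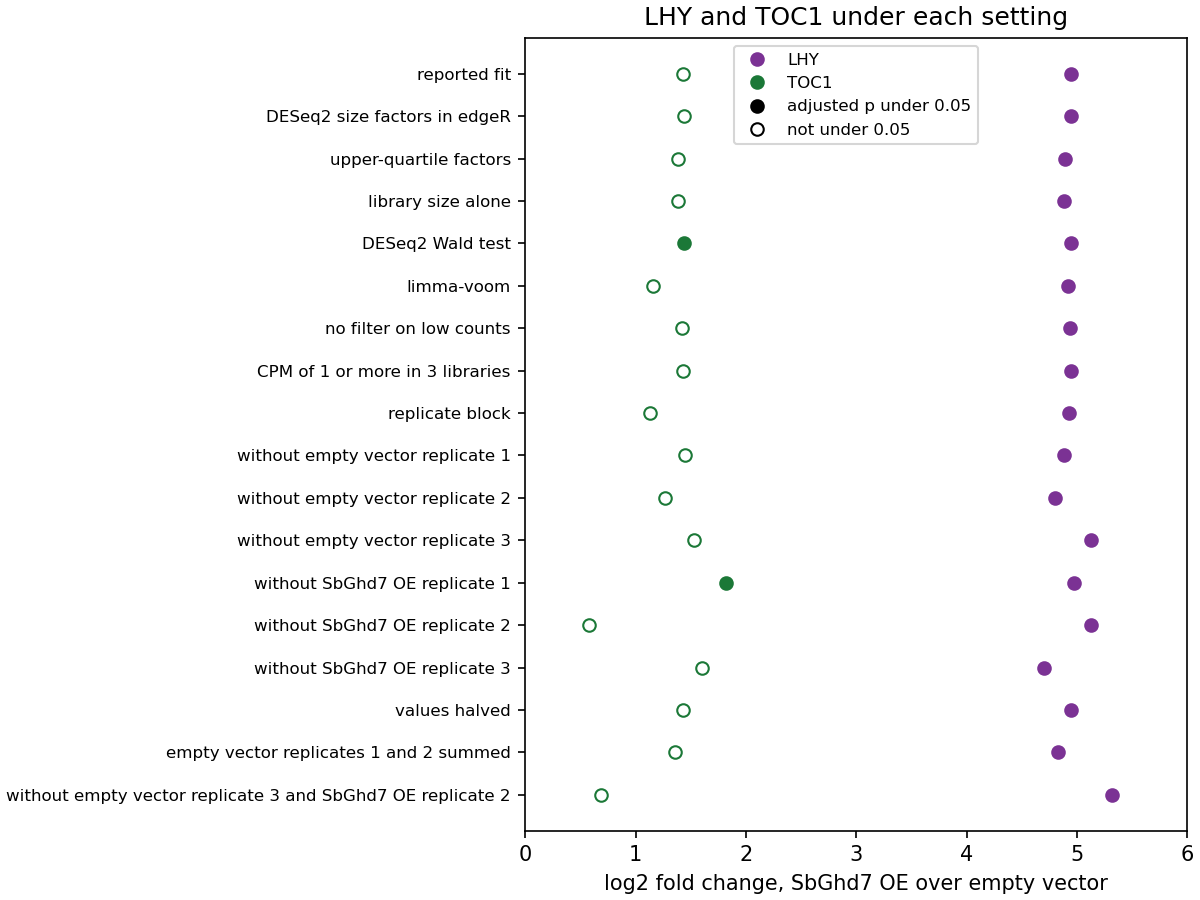
Log2 fold changes, SbGhd7 OE over empty vector, of LHY (purple) and TOC1 (green) in the reported fit and the 17 alternatives, one per line; filled points have an adjusted p under 0.05. LHY stays between 4.70 and 5.32 with every point filled, while TOC1 ranges from 0.58 to 1.82 with 2 filled points.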

How the data were processed

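The authors deposited 1 file per library, with a whole number per gene model. Per the submitters' processing notes HISAT2 2.2.1, StringTie 2.2.1 and DESeq2 2.11.40.7 were used, with no roles given. The sources used here give no genome build, strand setting or filter, so overlapping or antisense genes could not be told apart. The values as deposited were taken to be estimated counts. Rounding changed none, but the value 2 was 2.91 to 3.57 times as frequent as 1, so a value may not be a single fragment. Libraries of a group differed by a median chi-square per gene of 1.98 (empty vector replicates 1 and 2) to 7.56. With each value halved the range was 0.991 (the same libraries) to 3.79. Sampling noise of single fragments gives 0.455, below all of these. The chi-square falls as the divisor grows, and how many fragments a value stands for is not known. It therefore cannot decide whether empty vector replicates 1 and 2 differ beyond sampling. All 6 were kept apart as labelled. With those 2 summed, LHY had a log2 fold change of 4.83 (edgeR adjusted p = 2.3e-04) and TOC1 of 1.36 (adjusted p = 0.14).

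Of 26611 genes with a count, 20820 passed filterByExpr and were tested with TMM and the quasi-likelihood test of edgeR 4.0.16 (R 4.3.3, robust, group as the only term), with Benjamini-Hochberg adjustment over all of them and a threshold of 0.05. SE is the absolute log2 fold change over the square root of F. Log2 CPM used a prior count of 2, and log2 ratios used 0.5 added to each count. DESeq2 1.42.0 and limma 3.58.1 (voom) were alternatives. The procedure was tested on simulated data in which few genes were changed, so that test does not cover changes as wide as those here. Named genes were both members, SbGhd7, 4 listed clock genes, 6 leaf markers and the nearest pattern to each member in either sign. Members and lists were chosen with earlier results of these data known. None of the identifiers matched the RefSeq table (32945 genes), so positions and sequences are not given.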

Additional observations from a re-analysis of the deposited data

How the results depend on the processing

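Only the fit without both SbGhd7 OE replicate 2 and empty vector replicate 3 was chosen after seeing the data. TOC1 passed with DESeq2's Wald test (log2 fold change 1.44, adjusted p = 0.016) and without SbGhd7 OE replicate 1, and otherwise had adjusted p-values of up to 0.22. Leaving out 1 library gave 4.70 to 5.13 for LHY, 0.58 to 1.82 for TOC1, 3.10 to 4.55 for their difference, 3.25 to 4.62 for the difference in the log2 ratio of counts, and 8850 to 10722 genes called. Without both libraries named above, the difference of the fitted values was 4.63. A call rule that adds a 2-fold minimum kept 5798 of the 11087 genes called. Of the called genes 58.3% were higher in SbGhd7 OE under that rule, 47.6% with scaling by library size alone and 52.6% as reported.

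The labels do not say whether the replicate numbers pair the libraries. Deviations of same-numbered libraries from their group means correlated at 0.005, -0.055 and -0.105 over genes. Those of differently numbered libraries correlated at -0.094 to 0.11. With 3 libraries in a group these values cannot decide whether the numbers mark pairs. With the replicate number as a block, LHY had a log2 fold change of 4.93 (edgeR adjusted p = 1.1e-04), TOC1 of 1.13 (adjusted p = 0.14), and 9848 genes were called. TOC1, at 51 to 323 counts a library, has a larger relative counting error than LHY, at 616 to 27463. Its SbGhd7 OE libraries differed by more than the counting error at full counts.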
